A study of Mus musculus with 12 samples.

Results

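The 10 genes described here build or switch on the epithelial cell contact: the adhesion molecule gene Epcam, the claudin genes Cldn3, Cldn4, Cldn6 and Cldn7, the occludin gene Ocln, the scaffold gene Tjp1, the splicing regulator genes Esrp1 and Esrp2, and the transcription factor gene Grhl2. They were taken by name: each was the row of the deposited expression table whose Ensembl gene ID carries that symbol in GENCODE M21. They are 10 of the 40384 genes in the table, which covers 12 mouse RNA-seq libraries in 4 groups of 3. D4_DUX is the day 4 reprogramming culture with the treatment label OE-DUX, in which DUX was overexpressed for 48 h, and D4 is the day 4 culture with the treatment label OE-NC, a code that the labels do not spell out. The iPSC group holds induced pluripotent stem cells, labelled as iPSC cell, and the MEF group holds embryonic fibroblasts. The fibroblasts and both day 4 groups are labelled as 4F2A cell, from male mid-gestation embryos homozygous for 4F2A, a doxycycline-inducible cassette of the reprogramming factors Oct4, Sox2, Klf4 and c-Myc. A single culture text with LIF and 2 μg/mL doxycycline is attached to every sample, fibroblasts and iPSC included. The labels do not say that the 3 libraries of a group came from separate cultures, so p-values measure the spread between these libraries, which may be technical.

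Tight junctions seal the space between neighbouring epithelial cells. Claudins and occludin span the membranes and form the strands, ZO-1, the product of Tjp1, ties the strands to actin, and EpCAM is an adhesion molecule that binds and stabilises claudin-7. ESRP1 and ESRP2 bind RNA and set the epithelial form of messages such as Fgfr2, Cd44, Enah and Ctnnd1, while GRHL2 is a Grainyhead factor that activates junction genes, among them Cdh1 and claudin genes. Fibroblasts that are reprogrammed to pluripotency pass through a mesenchymal to epithelial transition, and mouse pluripotent stem cells are themselves epithelial.

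The promoters of 4 members are shown, out of 6 members with a RefSeq window that carries the same short motif. Cldn7 and Ocln carry it too and are not printed. Each window runs from 250 bases before the RefSeq start site to 50 bases after it on build GRCm38.p6. It is printed 5′ to 3′ on the strand of the gene, and capitals mark the E-box CAGGTG, on either strand, a sequence that ZEB and SNAIL repressors can bind. The windows lie at chr17:87635729-87636028 on the plus strand for Epcam, chr5:134985964-134986263 on the plus strand for Cldn3, chr5:134946885-134947184 on the minus strand for Cldn4 and chr17:23679115-23679414 on the plus strand for Cldn6.
Epcam: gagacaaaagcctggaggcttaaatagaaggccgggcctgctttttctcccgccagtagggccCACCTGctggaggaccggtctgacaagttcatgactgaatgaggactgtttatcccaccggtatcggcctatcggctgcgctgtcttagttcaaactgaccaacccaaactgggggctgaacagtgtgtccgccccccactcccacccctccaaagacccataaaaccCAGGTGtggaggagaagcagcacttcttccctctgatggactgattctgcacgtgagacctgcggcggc
Cldn3: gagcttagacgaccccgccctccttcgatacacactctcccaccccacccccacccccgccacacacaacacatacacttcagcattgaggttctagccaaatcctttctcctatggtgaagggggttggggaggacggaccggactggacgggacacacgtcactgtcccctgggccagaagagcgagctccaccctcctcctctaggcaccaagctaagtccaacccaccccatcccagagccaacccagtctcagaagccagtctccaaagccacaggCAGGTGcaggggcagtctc
Cldn4: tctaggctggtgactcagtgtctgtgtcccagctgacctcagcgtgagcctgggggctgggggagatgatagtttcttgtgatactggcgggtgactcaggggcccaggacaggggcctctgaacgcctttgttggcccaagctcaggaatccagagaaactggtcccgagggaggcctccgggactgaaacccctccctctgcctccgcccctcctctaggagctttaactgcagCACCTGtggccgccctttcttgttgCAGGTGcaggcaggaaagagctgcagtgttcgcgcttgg
Cldn6: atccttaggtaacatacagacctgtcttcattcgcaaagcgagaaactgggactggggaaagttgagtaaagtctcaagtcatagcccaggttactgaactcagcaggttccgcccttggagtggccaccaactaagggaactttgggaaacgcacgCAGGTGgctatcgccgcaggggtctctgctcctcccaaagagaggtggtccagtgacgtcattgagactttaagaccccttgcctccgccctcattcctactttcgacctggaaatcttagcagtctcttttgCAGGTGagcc
In Epcam the E-box starts at −187 on the opposite strand and at −19. In Cldn4 it starts at −14 on the opposite strand and at 12, in Cldn6 at −93 and 41, and in Cldn3 at 32, counted from the start site. No GENCODE M21 transcript begins with the 50 bases after the RefSeq start of the Cldn6 window. Both Cldn6 matches lie inside the GENCODE gene span given below. RefSeq had 9 windows for 7 members, adding Cldn7, Ocln and Tjp1. CAGGTG was found in 7 of the 9 windows, in all of these members but Tjp1, and in 20.2% of the 32851 RefSeq promoter windows of the same length. At least 2 matches were found in a window of 5 members, Cldn4, Cldn6, Cldn7, Epcam and Ocln, and in 2.88% of all windows. The Cldn7 matches lie only in its window at chr11:69965171-69965470, where the same GENCODE limit holds. The Cldn7 window at the start of the GENCODE gene holds none. The Grainyhead motif AACCNGTT was in 0 of the 9 windows and in 2.09% of all windows. The KLF motif GGGNGTGG was in 4 of the 9 windows and in 17.6% of all windows. Both strands were searched, no E-box match overlapped a KLF match, a pair of KLF matches of Cldn3 overlapped each other, and the Ocln windows overlap and share an E-box. A match is a description of letters, not of binding. The share of G and C was 57.0% for the Epcam, 60.7% for the Cldn3, 61.0% for the Cldn4 and 52.3% for the Cldn6 window, against a median of 52.7% over all windows.

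In GRCm38 coordinates Epcam (ENSMUSG00000045394) lies on chromosome 17 from 87635979 to 87651129 and Cldn6 (ENSMUSG00000023906) on the same chromosome from 23679249 to 23682446. Cldn4 (ENSMUSG00000047501, chromosome 5, 134945119 to 134946934) and Cldn3 (ENSMUSG00000070473, chromosome 5, 134986214 to 134987472) are neighbours on opposite strands, 39279 bases apart. Cldn7 (ENSMUSG00000018569) lies on chromosome 11 from 69964779 to 69967885, Ocln (ENSMUSG00000021638) on chromosome 13 from 100496507 to 100552718, and Tjp1 (ENSMUSG00000030516) on chromosome 7 from 65296165 to 65527781. Esrp1 (ENSMUSG00000040728) lies on chromosome 4 from 11331933 to 11386783, Esrp2 (ENSMUSG00000084128) on chromosome 8 from 106130319 to 106136974, and Grhl2 (ENSMUSG00000022286) on chromosome 15 from 37233036 to 37363569. Exons of 4 members overlap genes on the opposite strand, for 7.79% of the exon bases of Esrp2, 3.18% of Cldn3, 2.01% of Esrp1 and 1.96% of Grhl2. The sources used here do not say whether strand entered the counting, so fragments in those bases cannot be assigned to a strand.

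The libraries held 22550000 to 28120000 counted fragments. The 10 pluripotency markers summed to 1389.5 to 1545 FPKM in iPSC and to at most 1.502 FPKM in any other library, and the 10 fibroblast markers summed to 740.3 to 977 FPKM in iPSC against 5997 to 6125 FPKM in MEF. Duxf3, the mouse Dux gene, was at 0 FPKM in all 3 D4_DUX libraries and at 0.00741, 0.00747 and 0 FPKM in D4, below the 3 fragments taken as the floor of detection, so the table does not show the overexpression and D4_DUX below means the libraries labelled so. Markers of other cell types differed between the groups. The 8 mesothelium markers summed to 541 to 553 FPKM in D4_DUX against 377 to 400.5 FPKM in D4, and to 6.31 to 7.76 FPKM in iPSC against 9.23 to 9.56 FPKM in MEF. Msln made up most of the day 4 sums, at means of 469 FPKM in D4_DUX and 340 FPKM in D4. Wt1, Krt7 and Bnc1 had lower means in D4_DUX than in D4, and the other mesothelium markers had higher ones. The 12 macrophage markers summed to 44.8 to 45.8 FPKM in D4_DUX against 178 to 214 FPKM in D4, and to 132 to 173 FPKM in iPSC against 1528 to 1576 FPKM in MEF.

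Levels are FPKM, counted fragments scaled to the exon length of the gene and to the depth of the library, and differences are of log2(FPKM + 1), tested with limma over the 17114 genes that reached 1 FPKM in at least 3 libraries. Of the 10 members 9 passed that filter. Epcam, Cldn4, Cldn6, Cldn7, Esrp1 and Grhl2 passed through the iPSC libraries alone, so a difference of these 6 between iPSC and the other groups was built into the filter and is given as levels, with no test. Genes of the lists below that passed through 1 compared group alone are treated in the same way, and each list count that holds such genes is followed by the count without them. Tjp1 and Esrp2 passed through iPSC and through other groups. Cldn3 passed through both day 4 groups and through neither iPSC nor MEF, so the filter favoured a difference between day 4 and those groups. The same limit holds for Cldn11, Ildr2, Rbm24, Nova2, Dsp and Krt14 of the lists below. Grhl3 and Erbb3 of the lists reached the filter only with the iPSC libraries, so their iPSC differences were built into it. Ocln, which reached 1 FPKM in 1 library, was not tested in the filtered fit.

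**Figure D1:**
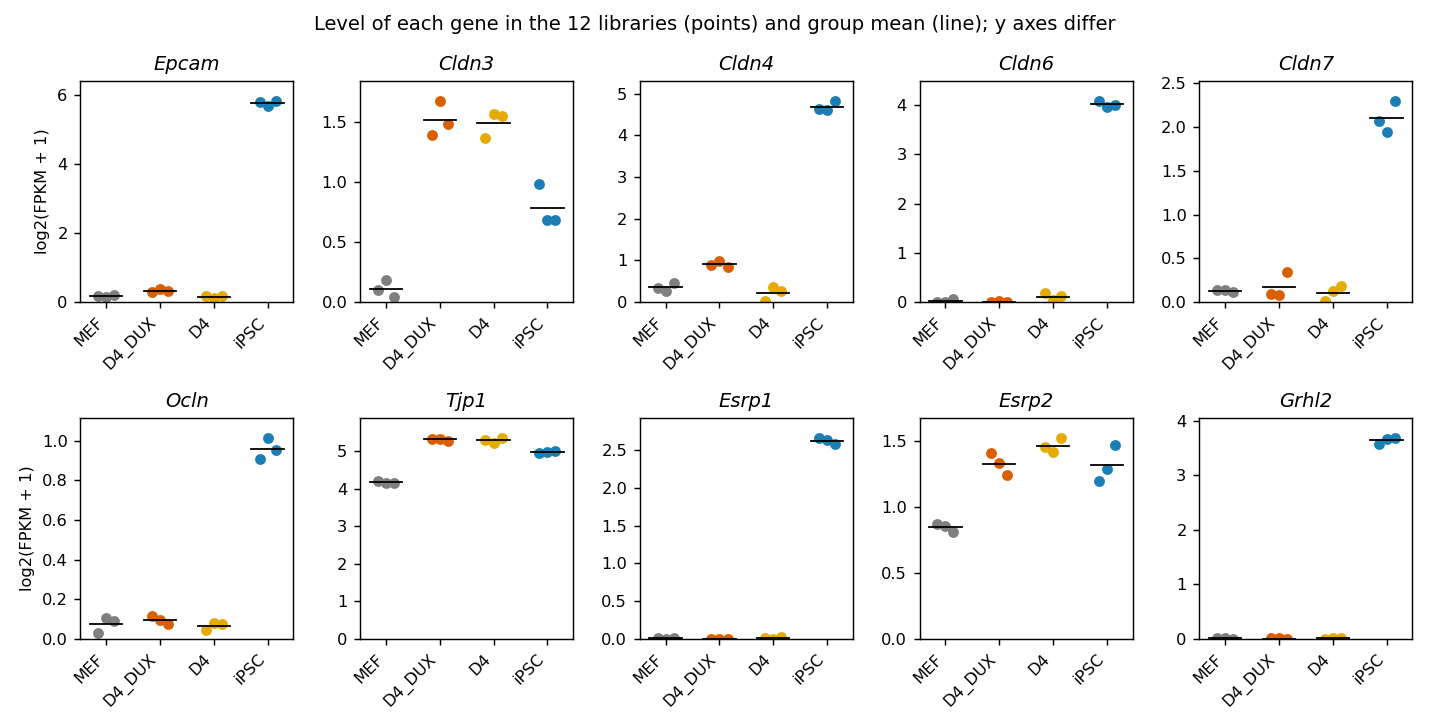
Each panel shows 1 gene, with log2(FPKM + 1) on the y axis, the 4 groups on the x axis, 1 point per library and a line at the group mean; the y axes differ. Epcam, Cldn4, Cldn6, Cldn7, Ocln, Esrp1 and Grhl2 stand highest in iPSC, while Cldn3, Tjp1 and Esrp2 are as high or higher in the day 4 cultures.

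In the plot of levels by library, Epcam, Cldn4, Cldn6, Cldn7, Ocln, Esrp1 and Grhl2 stood below 1 FPKM in every library outside iPSC. Cldn3, Tjp1 and Esrp2 were above 1 FPKM in every day 4 library, and Tjp1 and Esrp2 were already present in MEF. Between D4_DUX and D4, Cldn4 and Epcam rose and none of the 9 tested members fell. That is 2 members higher, where 20.1% of all tested genes were higher and 15.4% were lower. Between D4 and MEF, Cldn3, Tjp1 and Esrp2 rose and 0 of the 9 fell, where 34.2% of all tested genes were higher and 27.6% lower. Between iPSC and D4_DUX, Cldn3 and Tjp1 fell and Esrp2 did not pass the test, with 48.4% of all tested genes higher and 34.1% lower. The filter favoured both of these differences of Cldn3. Between iPSC and MEF all 3 rose, although Cldn3 and Esrp2 lost the call under quantile scaling, with 51% of all tested genes higher and 31.2% lower. Counted by libraries that do not overlap between groups, 2 of the 9 were higher and 2 lower in D4_DUX against D4 (28.5% and 21.9% of all tested genes), and 3 were higher and 0 lower in D4 against MEF (36.7% and 29.8%). For iPSC, 6 were higher and 2 lower against D4_DUX (48.9% and 34.9% of all tested genes) and 9 were higher and 0 lower against MEF (51.1% and 31.3%), and nothing is read from these counts because of the filter. The comparisons share libraries: D4_DUX, D4, iPSC and MEF each enter a pair of them. In bulk RNA, fewer cells of a type and less RNA per cell cannot be told apart.

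**Figure D2:**
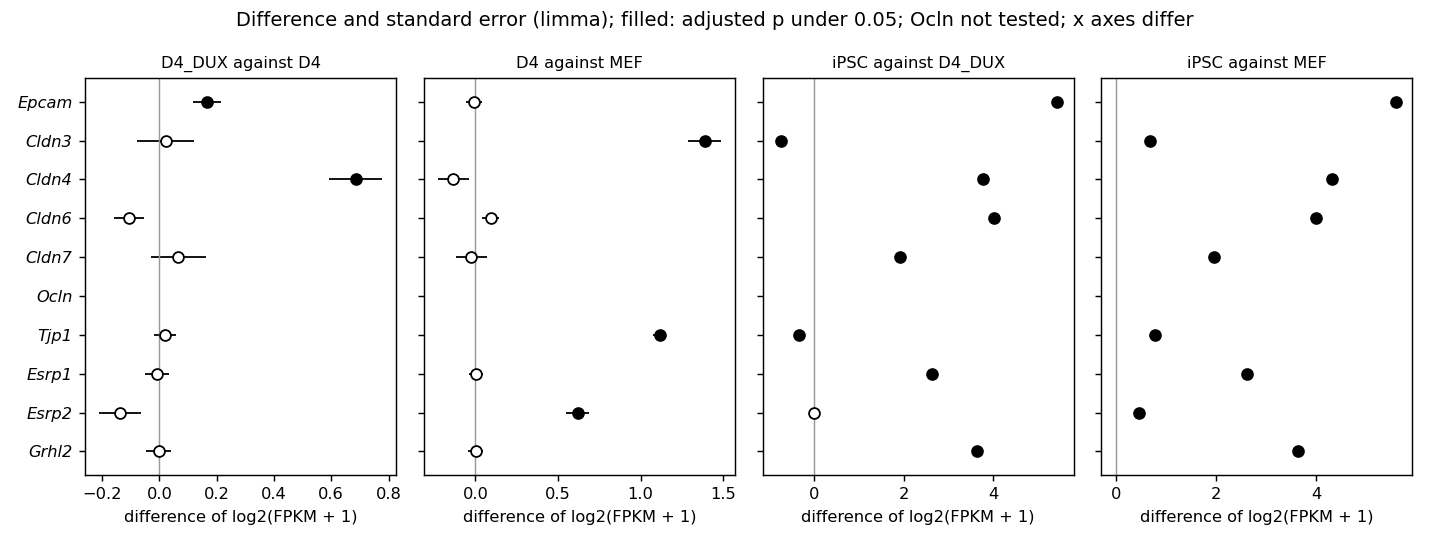
Differences of log2(FPKM + 1) on the x axis for each member, 1 panel per comparison, with the standard error from limma as a bar; filled points have an adjusted p under 0.05, Ocln was not tested, and the x axes differ. In the iPSC panels the points of Epcam, Cldn4, Cldn6, Cldn7, Esrp1 and Grhl2 were fixed by the filter and are a description. The filter also favoured the points of Cldn3 in D4 against MEF and in iPSC against D4_DUX. In D4_DUX against D4 the filled points are Epcam at 0.17 and Cldn4 at 0.69, and in D4 against MEF they are Cldn3 at 1.39, Tjp1 at 1.11 and Esrp2 at 0.62.

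Epcam was low in every culture but iPSC and was still higher in D4_DUX than in D4. It had 0.223, 0.288 and 0.238 FPKM in the D4_DUX libraries, against 0.131, 0.0826 and 0.128 FPKM in D4. All D4_DUX libraries lay above all D4 libraries, on 13.01, 17.01 and 12.51 fragments in D4_DUX against 6.51, 4.50 and 7.01 fragments in D4. The difference was 0.17 with a standard error of 0.05 (adjusted p = 0.0242), which is 2.19-fold between the mean FPKM values. Without D4_DUX library 2 the adjusted p was 0.0831, without D4_DUX library 3 it was 0.0507, and without D4 library 2 it was 0.0745. In iPSC Epcam had 53.8, 50.004 and 55.2 FPKM, against 0.121, 0.0970 and 0.146 FPKM in MEF. The iPSC mean of 53.0 ± 2.70 FPKM was 437-fold the MEF mean of 0.121 ± 0.0244 FPKM and 212-fold the D4_DUX mean of 0.250 ± 0.0343 FPKM (SD, n = 3 each). D4 and MEF overlapped, with a difference of −0.01 (SE 0.05, adjusted p = 0.896).

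Cldn4, a barrier-forming claudin, rose between the day 4 groups. It had 0.860, 0.973 and 0.794 FPKM in D4_DUX, against 0.0244, 0.288 and 0.199 FPKM in D4. As the plot of recovered fragments shows, these levels rest on 41.5, 47.5 and 34.5 fragments in D4_DUX and on 1, 13.01 and 9.01 fragments in D4. Every D4_DUX library was above every D4 library, and the difference was 0.69 with a standard error of 0.09 (adjusted p = 0.000221). In iPSC Cldn4 had 23.7, 23.2 and 27.2 FPKM, against 0.269, 0.199 and 0.372 FPKM in MEF. The iPSC mean of 24.7 ± 2.20 FPKM was 28.2-fold the D4_DUX mean of 0.876 ± 0.0909 FPKM and 88.2-fold the MEF mean of 0.280 ± 0.0868 FPKM (SD, n = 3 each). D4 and MEF overlapped (difference −0.13, SE 0.09, adjusted p = 0.235), so the order from low to high was D4, MEF, D4_DUX and iPSC, with the overlap between the lowest neighbours and none above them.

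**Figure D3:**
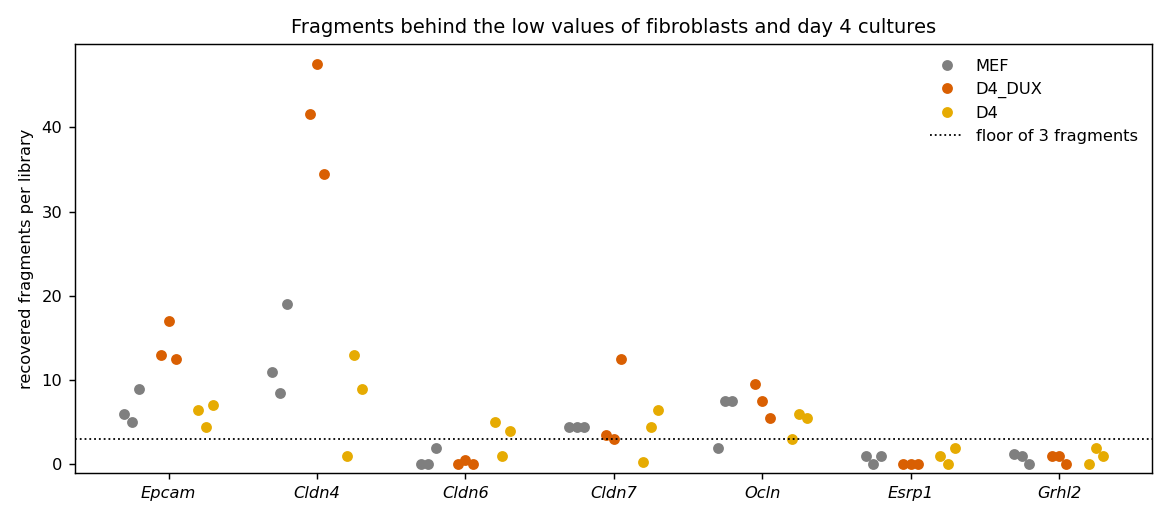
Recovered fragments per library on the y axis for the 7 members that were low outside iPSC, with points coloured by group and a dotted line at the floor of 3 fragments. Cldn4 in D4_DUX stands at 34.5 to 47.5 fragments, Epcam in D4_DUX at 12.51 to 17.01, and Esrp1 and Grhl2 lie below the floor in every library shown.

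Cldn3, the chromosomal neighbour of Cldn4 and also a barrier-forming claudin, had another order of groups. It had 1.63, 2.19 and 1.79 FPKM in D4_DUX, against 1.58, 1.97 and 1.92 FPKM in D4, and these groups overlapped (difference 0.02, SE 0.10, adjusted p = 0.906). In iPSC it had 0.974, 0.609 and 0.605 FPKM, against 0.0705, 0.135 and 0.0282 FPKM in MEF. The 3 MEF values rest on 2, 4 and 1 fragments, so Cldn3 was at or near the floor in fibroblasts. It rose in D4 against MEF by 1.39 (SE 0.10, adjusted p = 2.25e-07) and fell in iPSC against D4_DUX by 0.73 (SE 0.10, adjusted p = 2.45e-05), to 0.390 times the D4_DUX mean. Cldn3 passed the filter through the day 4 groups alone, which favoured both of these differences. The iPSC libraries were above MEF by 0.68 (SE 0.10, adjusted p = 4.90e-05), a call that quantile scaling of the libraries ended (0.14, adjusted p = 0.202). The ratio of Cldn4 to Cldn3 FPKM was 0.528, 0.445 and 0.443 in D4_DUX, against 0.0155, 0.147 and 0.104 in D4. In iPSC the same ratio was 24.3, 38.1 and 44.99, so the more abundant of these neighbours was Cldn3 at day 4 and Cldn4 in iPSC.

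Cldn6, a claudin of embryonic epithelia, was an iPSC message in these libraries. It had 15.9, 14.6 and 15.0 FPKM in iPSC, against 0, 0 and 0.0413 FPKM in MEF. In D4_DUX it had 0, 0.0108 and 0 FPKM, against 0.129, 0.0234 and 0.0934 FPKM in D4. The D4_DUX libraries held 0, 0.5 and 0 fragments against 5, 1 and 4 fragments in D4, without overlap, and the difference of −0.11 did not pass the test (SE 0.05, adjusted p = 0.136). With a pseudocount of 0.1 it was −0.77 (adjusted p = 0.0176), with TPM −0.31 (adjusted p = 0.0364) and with voom on recovered fragments −2.49 (adjusted p = 0.00734), and over all alternatives it was never of the other sign. D4 against MEF gave 0.09 (SE 0.05, adjusted p = 0.146), and the same 3 alternatives gave 0.65 (adjusted p = 0.0206), 0.27 (adjusted p = 0.0408) and 1.94 (adjusted p = 0.0170).

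Cldn7, the claudin that EpCAM binds, reached a lower level in iPSC than Cldn4 and Cldn6. It had 3.19, 2.85 and 3.91 FPKM in iPSC, against 0.103, 0.0984 and 0.0821 FPKM in MEF. In D4_DUX it had 0.0676, 0.0573 and 0.268 FPKM, against 0.00570, 0.0930 and 0.134 FPKM in D4. D4_DUX library 3 was the highest of the day 4 libraries, the groups overlapped, and the difference was 0.07 (SE 0.09, adjusted p = 0.642). The iPSC mean of 3.32 ± 0.541 FPKM was 25.3-fold the D4_DUX mean of 0.131 ± 0.119 FPKM and 35.1-fold the MEF mean of 0.0943 ± 0.0108 FPKM (SD, n = 3 each). Epcam, by comparison, stood at 53.0 ± 2.70 FPKM in iPSC, so the FPKM of the partner pair were unequal there.

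Ocln, which encodes occludin, had 0.876, 1.02 and 0.938 FPKM in iPSC, against 0.0210, 0.0756 and 0.0631 FPKM in MEF. In D4_DUX it had 0.0846, 0.0661 and 0.0544 FPKM, against 0.0315, 0.0572 and 0.0524 FPKM in D4. The iPSC libraries were above all others and the other 3 groups overlapped. A fit with no filter on low values gave 0.88 for iPSC against MEF (SE 0.03, adjusted p = 4.40e-09), 0.86 for iPSC against D4_DUX (SE 0.03, adjusted p = 4.98e-09) and 0.03 for D4_DUX against D4 (SE 0.03, adjusted p = 0.755).

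Tjp1, the gene of the scaffold ZO-1, was the only member above 10 FPKM in all 12 libraries. It had 39.1, 39.4 and 37.6 FPKM in D4_DUX, against 38.5, 36.1 and 39.9 FPKM in D4. In iPSC it had 29.7, 30.3 and 31.2 FPKM, against 17.5, 16.9 and 16.9 FPKM in MEF. The day 4 groups overlapped (difference 0.02, SE 0.04, adjusted p = 0.759) and both lay above iPSC, which lay above MEF. D4 exceeded MEF by 1.11 (SE 0.04, adjusted p = 5.63e-10), 2.23-fold between means of 38.2 ± 1.93 and 17.1 ± 0.343 FPKM (SD, n = 3 each). Relative to D4_DUX, iPSC fell by 0.34 (SE 0.04, adjusted p = 6.30e-06), to 0.785 times its mean, and relative to MEF iPSC rose by 0.79 (SE 0.04, adjusted p = 2.62e-09), 1.78-fold. The rises of Tjp1 and Cldn3 at day 4 went with summed mesothelium markers of 377 to 400.5 FPKM in D4 against 9.23 to 9.56 FPKM in MEF, none of the 8 markers being at 0 in either group. Msln made up most of the D4 sum, at a mean of 340 FPKM against 1.45 FPKM in MEF. Krt19 did not differ (−0.01, adjusted p = 0.924), and the other markers were higher in D4. The part of the mesothelium markers in the rises of Tjp1 and Cldn3 was not tested.

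The splicing regulators differed from each other. Esrp1 had 5.34, 5.20 and 4.96 FPKM in iPSC, against 0.00704, 0 and 0.00564 FPKM in MEF. It was at 0 FPKM in all 3 D4_DUX libraries, against 0.00704, 0 and 0.0127 FPKM in D4, which is at most 2 fragments in any library outside iPSC. Against the floor of 3 fragments per library, Esrp1 in iPSC was at least 260-fold higher than in D4_DUX.

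Esrp2 was expressed in every library. It had 1.66, 1.52 and 1.36 FPKM in D4_DUX, against 1.74, 1.66 and 1.88 FPKM in D4. In iPSC it had 1.29, 1.44 and 1.77 FPKM, against 0.831, 0.809 and 0.755 FPKM in MEF. All D4_DUX libraries were below all D4 libraries by a small margin, and the difference of −0.14 did not pass the test (SE 0.07, adjusted p = 0.171). D4 was above MEF by 0.62 (SE 0.07, adjusted p = 1.64e-05), 2.21-fold, and iPSC was above MEF by 0.47 (SE 0.07, adjusted p = 7.74e-05), 1.88-fold. Quantile scaling ended the call of iPSC against MEF (0.13, adjusted p = 0.173). iPSC against D4_DUX gave −0.01 (SE 0.07, adjusted p = 0.910), and −0.32 (adjusted p = 0.00324) under quantile scaling. The ratio of Esrp1 to Esrp2 FPKM was 4.14, 3.60 and 2.80 in iPSC. With Esrp1 at the floor of 3 fragments, the ratio was at most 0.0254 in any MEF or day 4 library. Esrp2 was the more abundant gene of the pair before iPSC, and Esrp1 in iPSC.

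Grhl2, the Grainyhead factor, had 10.9, 11.7 and 11.9 FPKM in iPSC, against 0.00644, 0.00494 and 0 FPKM in MEF. In D4_DUX it had 0.00437, 0.00432 and 0 FPKM, against 0, 0.00935 and 0.00467 FPKM in D4. These are at most 2 fragments in each library outside iPSC, below the floor, and 2258, 2423 and 2688 fragments in iPSC. At this depth no difference between D4_DUX and D4 was detectable (−0.0025, SE 0.04, adjusted p = 0.985). Epcam, Cldn3, Cldn4, Cldn7, Ocln, Tjp1 and Esrp2 were at or above the floor in every D4_DUX library. All of these but Cldn4 and Cldn7 were so in every D4 library too. A link of their levels to Grhl2 was not tested.

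The claudin messages were also read as shares of the family, as the stacked bars show. The 30 claudin genes in the table summed to 15.2 ± 0.640 FPKM in D4_DUX, against 15.1 ± 1.49 FPKM in D4, and to 61.8 ± 2.82 FPKM in iPSC, against 13.4 ± 0.4005 FPKM in MEF (SD, n = 3 each). The 4 member claudins made up 19.0 ± 2.95% of that sum in D4_DUX and 14.2 ± 1.29% in D4, and 71.0 ± 1.40% in iPSC and 3.48 ± 0.350% in MEF. In fibroblasts the family was mostly Cldn12, at 78.9 ± 1.24% of the sum, and in iPSC it was mostly Cldn4, at 39.9 ± 1.77%, and Cldn6, at 24.6 ± 1.48% (SD, n = 3 each). Cldn4 took 5.40, 6.62 and 5.32% in D4_DUX against 0.181, 1.75 and 1.31% in D4, a difference of 4.70 points, which was 2.98 points with fragments not divided by gene length. Cldn3 took 10.2, 14.9 and 12.001% in D4_DUX against 11.7, 11.9 and 12.6% in D4, a difference of 0.275 points. In an exact two-sided permutation test the Cldn4 difference had p = 0.1, the smallest p that 3 against 3 libraries allow, and the Cldn3 difference had p = 0.8. Cldn15, a claudin that forms cation pores, took 12.9 ± 0.411% in D4_DUX against 5.55 ± 1.72% in D4 (SD, n = 3 each).

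**Figure D4:**
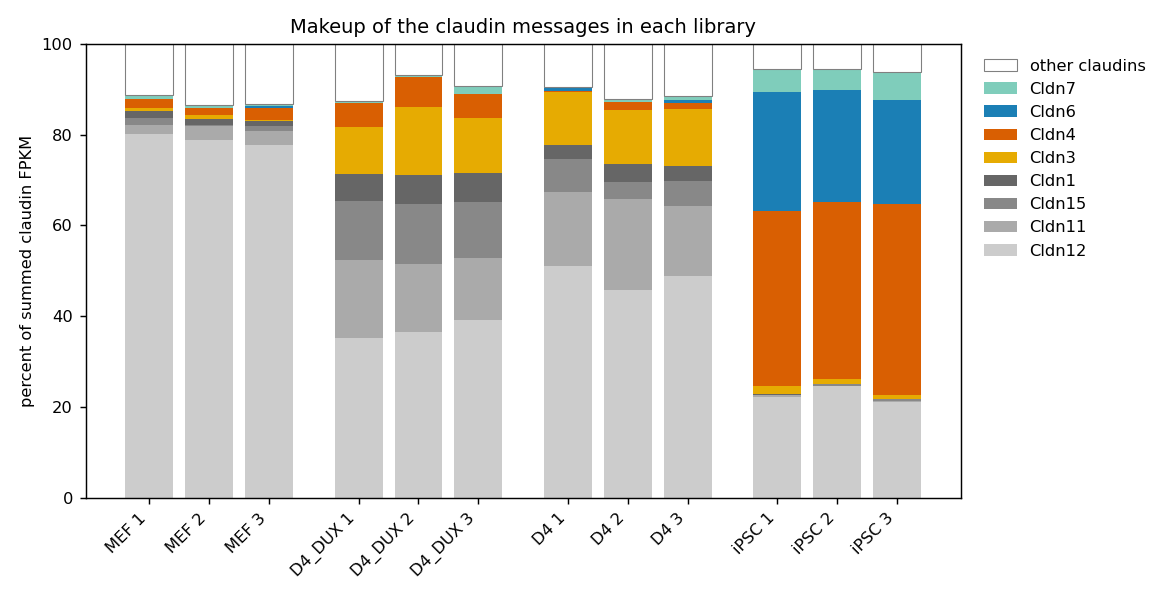
Stacked bars give the percent of the summed claudin FPKM held by each claudin gene in each of the 12 libraries, member claudins in colour and other claudins in grey or white. Cldn12 fills 77.7 to 80.2% of the MEF bars, and Cldn4 and Cldn6 fill most of the iPSC bars.

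Other claudins and junction proteins were read from lists. Of all tested genes 20.1% were higher and 15.4% lower in D4_DUX against D4, 34.2% and 27.6% in D4 against MEF, 48.4% and 34.1% in iPSC against D4_DUX, and 51% and 31.2% in iPSC against MEF, and each list count below stands against these shares. The claudin list held 18 of the 26 claudin genes that are not members, and Cldnd1, a claudin domain gene that is not part of the family sum above. Of these 19 genes 5 were tested. Cldn15 had 2.08, 1.94 and 1.86 FPKM in D4_DUX, against 0.972, 0.621 and 0.866 FPKM in D4, and passed the filter through D4_DUX alone. In the same comparison Cldn12 fell by 0.33 (adjusted p = 0.000233) and Cldnd1 by 0.12 (adjusted p = 0.0341), so 1 of the 5 was higher and 2 were lower (median −0.12, against 0.02 over all tested genes), or 0 and 2 of 4 without Cldn15. Relative to MEF, 3 of the 5 rose in D4 and Cldn12 fell by 0.48 (adjusted p = 1.99e-06), with a median of 0.19, against 0.03. Cldn11, a claudin of myelin and testis, had 2.22, 3.29 and 2.33 FPKM in D4, against 0.261, 0.444 and 0.409 FPKM in MEF. In iPSC, Cldn12 was above D4_DUX by 1.18 (adjusted p = 2.20e-10) and above MEF by 0.37 (adjusted p = 8.56e-06). Cldn20 had 1.32, 1.27 and 1.90 FPKM in iPSC, against 0.303, 0.129 and 0.296 FPKM in MEF, and passed through iPSC alone. Of these 5, 2 were higher and 3 lower in iPSC against D4_DUX (median −0.59, against 0.15), and 2 were higher and 2 lower in iPSC against MEF (median 0.09, against 0.21). Without the genes that passed through 1 compared group alone the counts were 1 and 2 of 3, and 1 and 2 of 4. The medians were then −0.59 and −0.10.

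Among 31 other tight junction genes present, 29 were tested. In D4_DUX against D4, 6 rose and 3 fell, with a median difference of 0.05, against 0.02 over all tested genes. Ildr2, a protein of the angulin family of tricellular junctions, rose to 8.17, 7.31 and 8.10 FPKM in D4_DUX, against 4.51, 4.34 and 4.58 FPKM in D4 (0.69, SE 0.05, adjusted p = 4.18e-06). Amotl2, an angiomotin that links junctions to actin, fell by 0.67 (SE 0.04, adjusted p = 4.84e-07). Sympk rose by 0.20 (SE 0.04, adjusted p = 0.00252). Of the same 29, 16 rose and 6 fell in D4 against MEF, with a median of 0.33 against 0.03 over all tested genes. F11r, the gene of junctional adhesion molecule A, had 36.8, 40.7 and 35.5 FPKM in D4, against 10.2, 9.80 and 10.6 FPKM in MEF (1.78, SE 0.05, adjusted p = 6.98e-11). Ildr2 rose by 1.82 (SE 0.05, adjusted p = 1.15e-10).

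The 3 angulin genes differed between iPSC and D4_DUX, with Ildr1 and Lsr higher and Ildr2 lower in iPSC. Ildr1 had 10.8, 9.96 and 12.4 FPKM in iPSC, against 0.00876, 0.117 and 0.0778 FPKM in D4_DUX, and passed the filter through iPSC alone. Lsr, the gene of angulin-1, had 8.38, 7.62 and 7.78 FPKM in iPSC, against 1.26, 1.28 and 1.5004 FPKM in D4_DUX (1.93, SE 0.06, adjusted p = 7.34e-11). Ildr2 had 0.271, 0.279 and 0.298 FPKM in iPSC, against the D4_DUX values given above (−2.79, SE 0.05, adjusted p = 7.06e-13). Mpdz, a scaffold with many PDZ domains, fell by 1.51 (SE 0.04, adjusted p = 2.42e-11). Of the 29 genes 15 were higher and 9 lower, with a median of 0.17 against 0.15 over all tested genes. In iPSC against MEF, 18 were higher and 10 lower, with a median of 0.59 against 0.21. Without 3 genes that passed through iPSC alone, 12 of 26 were higher and 9 lower against D4_DUX, with a median of 0.03. Against MEF 15 of the 26 were higher and 10 lower, with a median of 0.40. Jam2, which encodes junctional adhesion molecule B, had 24.1, 27.0 and 30.9 FPKM in iPSC, against 1.82, 1.85 and 1.75 FPKM in MEF (3.33, SE 0.08, adjusted p = 4.83e-12). The heat map of these genes shows Ildr2 high at day 4 and Ildr1 high in iPSC. The median over all tested genes in iPSC against MEF was 0.04 with median-ratio scaling and −0.07 with quantile scaling, so small differences there depend on the scaling.

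**Figure D5:**
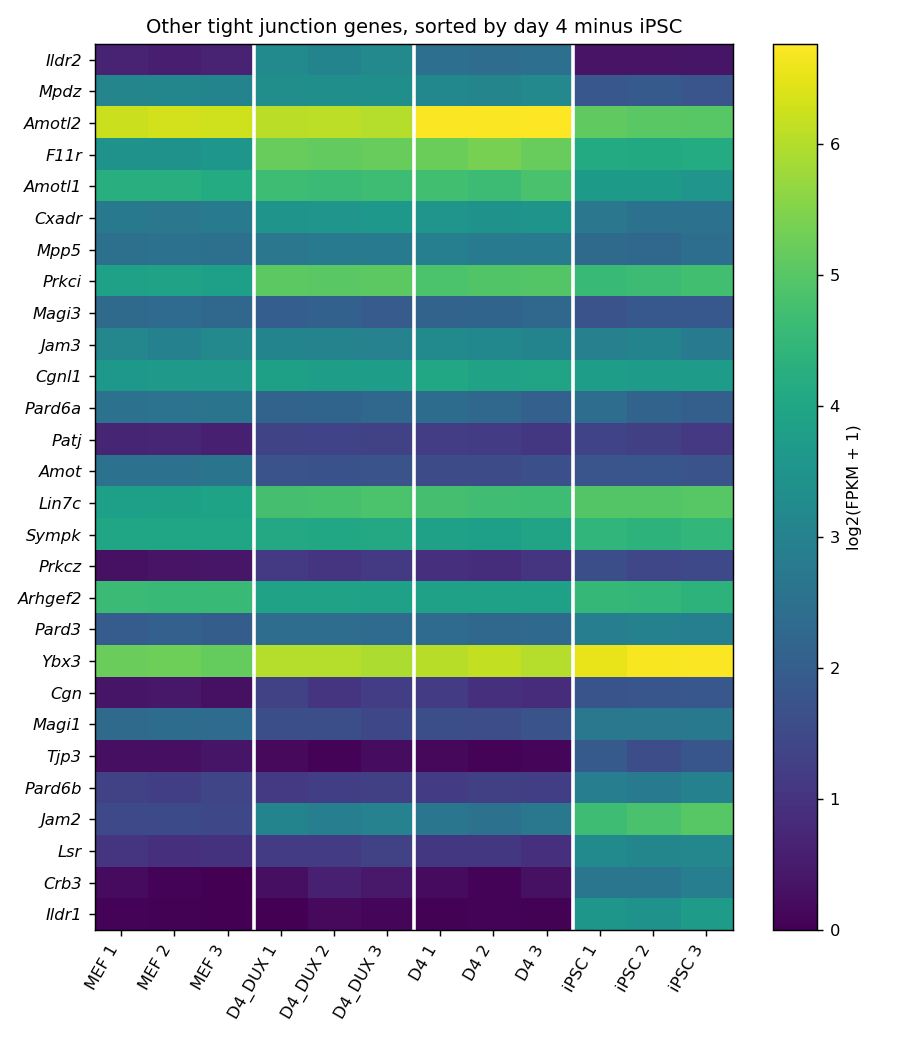
Heat map of log2(FPKM + 1) for other tight junction genes that were tested, 1 column per library and 1 row per gene, sorted from genes higher at day 4 to genes higher in iPSC. Ildr2 is at the top and Ildr1 at the bottom.

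Messages whose exons ESRP proteins are known to switch did not follow 1 direction, and a gene level does not show which form of a message was made. Of 14 tested hosts, 7 rose and 3 fell in D4_DUX against D4 (median 0.12, against 0.02 over all tested genes), and 5 rose and 5 fell in D4 against MEF (median −0.09, against 0.03). These are 50% and 21.4% of the list in D4_DUX against D4, where 20.1% and 15.4% of all tested genes were called, and 35.7% each way in D4 against MEF, where 34.2% and 27.6% were called. Osbpl3 rose at both steps, by 0.28 (SE 0.05, adjusted p = 0.000888) in D4_DUX against D4 and by 1.11 (SE 0.05, adjusted p = 2.72e-09) in D4 against MEF. Slc37a2 rose by 0.72 (SE 0.06, adjusted p = 8.37e-06) in D4_DUX against D4, and Numb, a regulator of Notch signalling, rose by 0.35 (SE 0.04, adjusted p = 6.51e-05). In D4 against MEF, Slc37a2 fell by 0.86 (SE 0.06, adjusted p = 2.08e-07) and Cd44, a hyaluronan receptor, rose by 0.85 (SE 0.04, adjusted p = 1.57e-08). In iPSC, 6 rose and 7 fell against D4_DUX (median 0.01, against 0.15), and 6 rose and 6 fell against MEF (median −0.01, against 0.21). Enah, an actin regulator, had 24.5, 25.4 and 26.8 FPKM in iPSC, against 9.70, 9.04 and 8.77 FPKM in MEF (1.39, SE 0.04, adjusted p = 4.37e-11), and Fgfr1 fell there by 0.63 (SE 0.05, adjusted p = 2.29e-07) while Ralgps2 rose by 1.09 (SE 0.05, adjusted p = 1.38e-09). Against D4_DUX, iPSC had Enah higher by 1.48 (SE 0.04, adjusted p = 2.24e-11), Magi1 higher by 1.15 (SE 0.05, adjusted p = 1.23e-09) and Osbpl3 lower, with a difference of −1.43 (SE 0.05, adjusted p = 7.11e-11).

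Other splicing regulators moved as well. Of 19 tested, 9 rose and 1 fell in D4_DUX against D4 (median 0.07, against 0.02), with Srsf1, a serine- and arginine-rich splicing activator, at 0.44 (SE 0.03, adjusted p = 2.53e-06), Srsf3 at 0.46 (SE 0.04, adjusted p = 7.29e-06) and Hnrnpm at 0.40 (SE 0.04, adjusted p = 2.00e-05). HNRNPM is known in human cells for opposing ESRP1 at shared exons. Relative to MEF, 3 rose in D4, namely Mbnl1 by 1.07 (SE 0.04, adjusted p = 1.21e-09), Rbm24 by 0.97 (SE 0.06, adjusted p = 7.99e-08) and Nova2 by 1.58 (SE 0.06, adjusted p = 9.67e-10), and 14 fell (median −0.25, against 0.03). Against D4_DUX 12 were higher and 7 lower in iPSC (median 0.72, against 0.15), with Srsf1 higher by 1.58 (SE 0.03, adjusted p = 9.85e-13), Hnrnpa1 higher by 1.32 (SE 0.04, adjusted p = 1.64e-11) and Mbnl1, a promoter of differentiated splicing forms, at −1.50 (SE 0.04, adjusted p = 1.49e-11). Against MEF 11 were higher and 7 lower in iPSC (median 0.59, against 0.21), led by Srsf1 at 1.54 (SE 0.03, adjusted p = 1.52e-12), Celf1 at 1.49 (SE 0.04, adjusted p = 8.58e-12) and Hnrnpf at 1.23 (SE 0.04, adjusted p = 2.99e-11). Without Rbm47, which passed through iPSC alone, 11 of 18 were higher and 7 lower against D4_DUX (median 0.72). Against MEF 10 of the 18 were higher and 7 lower (median 0.41).

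Among the relatives of Grhl2, Grhl3 was already present at day 4. It had 0.865, 1.25 and 1.09 FPKM in D4_DUX, against 0.549, 0.606 and 0.699 FPKM in D4 (0.35, SE 0.08, adjusted p = 0.00490). In iPSC it had 4.64, 4.69 and 5.48 FPKM, against 0.0318, 0 and 0.0446 FPKM in MEF. Grhl3 reached the filter only with the iPSC libraries, so its iPSC differences are given as levels. All D4_DUX libraries were above all D4 libraries, while Grhl2 itself was below the floor in both. Of the 5 family members tested, 2 rose in D4_DUX against D4, Grhl3 and Ubp1 (0.32, SE 0.06, adjusted p = 0.00333). In D4 against MEF 3 rose and Ubp1 fell by 0.50 (SE 0.06, adjusted p = 4.02e-05), with Grhl3 at 0.66 (SE 0.08, adjusted p = 1.63e-05) and Grhl1 at 0.33 (SE 0.05, adjusted p = 0.000266). In iPSC 4 were higher and 1 lower against D4_DUX, and 4 were higher against MEF. Without Grhl1 and Tfcp2l1, which passed through iPSC alone, these were 2 and 1, and 2, of 3. Grhl3 is among these 3 and among the higher genes of both counts, so nothing is read from them. Tfcp2l1, a factor of naive pluripotency, reached 24.1, 26.9 and 28.4 FPKM in iPSC, against 0.122, 0.133 and 0.186 FPKM in D4_DUX. The medians of the family were 0.10, 0.31, 0.96 and 1.14 in D4_DUX against D4, D4 against MEF, iPSC against D4_DUX and iPSC against MEF, beside 0.02, 0.03, 0.15 and 0.21 over all tested genes. Without Grhl1 and Tfcp2l1 the iPSC medians were 0.92 against D4_DUX and 0.74 against MEF. Grhl3 still enters them, so nothing is read from the iPSC medians.

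Of 12 tested epithelial genes that are known targets or companions of GRHL2, 4 rose and 1 fell in D4_DUX against D4 (median 0.10, against 0.02). Cdh1, the E-cadherin gene, had 6.31, 6.44 and 6.06 FPKM in D4_DUX, against 2.78, 2.54 and 2.61 FPKM in D4 (1.00, SE 0.06, adjusted p = 9.97e-07). The keratin gene Krt8 had 11.3, 9.85 and 9.71 FPKM in D4_DUX, against 2.91, 2.21 and 2.58 FPKM in D4 (1.66, SE 0.09, adjusted p = 5.36e-07), and Krt19 rose by 1.23 (SE 0.08, adjusted p = 1.06e-06). These rises stand beside those of Epcam and Cldn4. The 8 simple epithelium markers, which include Cdh1, Krt8 and Krt19, summed to 29.4 to 30.7 FPKM in D4_DUX against 13.3 to 14.4 FPKM in D4, with none of the 8 at 0. Only these 3 of the 8 rose, and the median of the list was −0.03, against 0.02. Krt18 (−0.24, adjusted p = 0.0576), Muc1 (−0.13, adjusted p = 0.295) and Lgals4 (−0.14, adjusted p = 0.240) did not pass the test. Krt7 had 0.747, 0.950 and 0.951 FPKM in D4_DUX, against 1.40, 1.25 and 1.19 FPKM in D4, and passed the filter through D4 alone. Without Krt7, 3 of 7 simple epithelium markers rose and 0 fell, and the median was 0.07, against 0.02. The 8 stratified epithelium markers summed to 61.6 to 72.5 FPKM in D4_DUX, against 38.0 to 40.5 FPKM in D4 and 1.79 to 2.37 FPKM in MEF, with Krt1 and Dsg3 at 0 in MEF and none at 0 at day 4. Of the 3 tested, Krt14, a keratin of basal cells, rose by 1.25 (SE 0.09, adjusted p = 2.78e-06) in D4_DUX against D4 and by 4.33 (SE 0.09, adjusted p = 8.08e-12) in D4 against MEF. Krt14 made up most of the D4_DUX sum, at a mean of 49.6 FPKM against 20.3 FPKM in D4. Krt10 (0.19, adjusted p = 0.160) and Sfn (−0.13, adjusted p = 0.391) did not pass the test in D4_DUX against D4. In D4 against MEF Sfn rose by 3.18 (adjusted p = 4.36e-10) and Krt10 did not pass (−0.02, adjusted p = 0.866). Krt19 is also a mesothelium marker, and the part of the mesothelium, simple epithelium and stratified epithelium markers in the rises of Epcam and Cldn4 was not tested. Of the 12, 6 rose and 2 fell in D4 against MEF (median 0.11, against 0.03), with Dsp, the desmoplakin gene, at 2.32 (SE 0.07, adjusted p = 1.23e-10), Cdh1 at 1.68 (SE 0.06, adjusted p = 7.43e-10) and Krt8 at 1.35 (SE 0.09, adjusted p = 1.69e-07). In iPSC 9 were higher and 3 lower against D4_DUX (median 1.08, against 0.15), and 11 were higher and 1 lower against MEF (median 1.32, against 0.21). Rab25, Ap1m2, Lama3 and Tmem30b passed through iPSC alone. Without them 5 of 8 were higher and 3 lower against D4_DUX (median 0.59), and 7 were higher and 1 lower against MEF (median 1.06). Erbb3 is still among the higher genes of both counts, although it reached the filter only with the iPSC libraries. Cdh1 reached 65.2, 68.3 and 74.7 FPKM in iPSC, against 0.223, 0.0791 and 0.109 FPKM in MEF. Ap1m2, an epithelial clathrin adaptor, had 7.07, 6.15 and 7.05 FPKM in iPSC, against 0.0359, 0.0474 and 0.0399 FPKM in D4_DUX. Lama3, a laminin chain, had 7.19, 7.39 and 8.46 FPKM in iPSC, against 0.288, 0.185 and 0.280 FPKM in D4_DUX.

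Repressors of epithelial genes were read in the same way. The E-box marked in the printed promoters was chosen for the ZEB and SNAIL repressors, not for the whole list. Of 8 tested, 1 rose and 5 fell in D4 against MEF (median −0.46, against 0.03), and 1 rose and 7 fell in iPSC against MEF (median −0.99, against 0.21). The lower genes are 62.5% of the list in D4 against MEF, where 27.6% of all tested genes were lower, and 87.5% in iPSC against MEF, where 31.2% were lower. Snai1 had 18.5, 24.4 and 23.0 FPKM in D4, against 39.9, 40.5 and 38.9 FPKM in MEF (−0.83, SE 0.08, adjusted p = 3.05e-06). Zeb2 fell by 0.60 in the same comparison (SE 0.05, adjusted p = 4.64e-07), while Twist1 rose by 0.68 (SE 0.07, adjusted p = 3.32e-06). In D4_DUX against D4, 3 rose and 2 fell (median 0.12, against 0.02), with Zeb2 at 0.30 (SE 0.05, adjusted p = 0.000562), Tcf4 at 0.21 (SE 0.05, adjusted p = 0.00418) and Snai1 at −0.40 (SE 0.08, adjusted p = 0.00311). Zeb1 had 5.15, 5.09 and 4.58 FPKM in iPSC, against 9.62, 10.05 and 9.87 FPKM in D4_DUX (−0.87, SE 0.05, adjusted p = 8.19e-09). Against D4_DUX 2 rose and 5 fell in iPSC (median −0.58, against 0.15), among them Twist1 at −1.63 (SE 0.07, adjusted p = 4.71e-10), while Twist2 rose by 1.25 (SE 0.08, adjusted p = 2.31e-08). Against MEF, iPSC had Zeb1 at −0.99 (SE 0.05, adjusted p = 2.63e-09), Zeb2 at −0.99 (SE 0.05, adjusted p = 1.57e-09) and Snai1 at −1.38 (SE 0.08, adjusted p = 1.19e-08).

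Of 17 genes listed as other transcription factors of epithelia 6 were tested. Esrrb, 1 of these 6, is also on the list of pluripotency markers used above. Klf4, whose message can come from the 4F2A cassette or from the gene itself, which cannot be told apart here, rose by 3.25 (SE 0.08, adjusted p = 4.63e-11) in D4 against MEF and by 0.37 (SE 0.08, adjusted p = 0.00560) in D4_DUX against D4. Klf5 fell in both, by 0.68 (SE 0.06, adjusted p = 6.91e-07) and by 0.36 (SE 0.06, adjusted p = 0.000520), and Tfap2c rose by 0.19 (SE 0.06, adjusted p = 0.0213) in D4 against MEF. The counts were 1 higher and 1 lower in D4_DUX against D4, and 2 higher and 1 lower in D4 against MEF. In iPSC 5 were higher and 1 lower against D4_DUX, and 6 were higher against MEF, but Ovol2, Elf3, Esrrb and Tfap2c passed through iPSC alone. That leaves Klf5 higher and Klf4 lower against D4_DUX, and both higher against MEF, with Klf5 at 4.68 (SE 0.06, adjusted p = 3.19e-14). Esrrb had 69.3, 71.7 and 78.1 FPKM in iPSC, against 0.00734, 0.00704 and 0.00588 FPKM in MEF. Tfap2c had 11.5, 10.4 and 12.2 FPKM in iPSC, against 0.0121, 0.0347 and 0 FPKM in MEF.

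The genes closest to each member in pattern were found as those with the smallest root mean square difference of centred log2(FPKM + 1) over the 12 libraries. For Epcam they were Pla2g1b (0.0925) and Zscan10 (0.0929), for Cldn4 Hsd17b14 (0.239) and Eprn (0.243), and for Cldn6 Pnma5 (0.0558) and Slc28a1 (0.0680). For Cldn7 they were Ly6g6d (0.0768) and Platr21 (0.0813), for Esrp1 Fthl17b (0.0183) and Platr12 (0.0387), and for Grhl2 Otx2 (0.0405) and Mageb16 (0.0519). Cldn4 had the least close neighbours of the 9 tested members, and the genes nearest to it had 0.257 and 0.133 FPKM on average in D4_DUX, against 0.117 and 0.0873 FPKM in D4. For Cldn3 the nearest were Phlda3 (0.124) and Plekhg6 (0.130), for Tjp1 Kazn (0.0596) and C77080 (0.0614), and for Esrp2 Rb1 (0.0618) and Polk (0.0657). Kazn, a gene of the desmosome-associated protein kazrin, had mean levels of 5.53 FPKM in D4_DUX and 5.39 FPKM in D4, and of 3.89 FPKM in iPSC and 1.86 FPKM in MEF. Its order of groups is that of Tjp1, which follows from its choice by likeness to Tjp1.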

How the data were processed

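Polyadenylated RNA of 12 mouse libraries was sequenced, per the labels' protocols. The authors deposited 1 table of FPKM values, 40384 Ensembl IDs by 12 columns; per the submitters' processing notes the build was mm10. The aligner, counter, annotation and use of strand were not given in the sources used here. Of the IDs 40225 (99.6%) matched GENCODE M21. FPKM times exon length came in steps of 1 value per library (54.8 to 56.9% of low values whole and 62.0 to 78.2% multiples of 0.5, tolerance 0.01), which gave the recovered fragments and depth. Intervals and floors (3 fragments per library) cover counting error only.

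Genes with at least 1 FPKM in at least 3 libraries were kept, 17114 in all, and limma 3.58.1 in R 4.3.3 was fitted to log2(FPKM + 1) with 4 group means, an empirical Bayes trend and Benjamini-Hochberg adjustment over all tested genes, threshold 0.05. Adding 1 makes fold changes of low genes smaller than their FPKM ratios. The script was tested on simulated data. Tables were handled in Python 3.11.15 with numpy 2.4.6, pandas 2.3.3 and scipy 1.17.1. No 2 columns were identical (0 pairs), and libraries of a group correlated at r = 0.990 to 0.996 on the log2 scale.

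The members and lists were chosen with earlier results of these data known. Named genes are the members, Duxf3, 2 nearest genes per tested member, and up to 3 genes per list and comparison with the smallest adjusted p among those called; some genes so named are not reported here. Lsr, Erbb3, Wt1, Krt7, Krt18, Muc1 and Lgals4 were named after their values were seen, as were the genes listed as passing the filter through 1 group alone. Alternatives were other pseudocounts, filters and scalings, voom on recovered fragments, leaving out each library, and a replicate block. Same-numbered libraries did not deviate together.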

Additional observations from a re-analysis of the deposited data

How the results depend on the processing

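Of 740 alternative member fold changes, 728 kept their side of the threshold, 5 lost the call, 7 gained it and no called value changed sign (0); those of Epcam, Cldn3, Cldn6 and Esrp2 that moved are given above. Leaving out a library left 1 to 2 members higher in D4_DUX against D4 (Cldn4 kept, Epcam lost in 3 of these fits). Members lower there numbered 1, Cldn6, with a pseudocount of 0.1, TPM or voom. With a filter at 5 FPKM fewer genes were tested: 1 member was higher in D4 against MEF, 1 lower in iPSC against D4_DUX and 5 higher in iPSC against MEF, and over all genes 3087 were lower in D4 against MEF, 5132 higher in iPSC against D4_DUX and 5570 higher in iPSC against MEF. With no filter more genes were tested, with 13091 higher in iPSC against D4_DUX and 13594 in iPSC against MEF. Members that passed the main filter through iPSC alone are part of the iPSC numbers above, and nothing is read from their part.

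Claudin shares from fragments without division by length, where long genes weigh more, differed by 4.83 points for Cldn3 in D4 against MEF and −4.74 in iPSC against D4_DUX, by 2.98, 27.4 and 30.0 for Cldn4 in D4_DUX against D4, iPSC against D4_DUX and iPSC against MEF, by 18.1 for Cldn6 in iPSC against D4_DUX and 18.1 against MEF, and by 4.11 for Cldn7 in iPSC against MEF.

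The replicate numbers did not pair libraries (r −0.146 to 0.0699 over 18 pairs of same-numbered libraries). A replicate block left 2 and 3 members higher and 0 and 0 lower in D4_DUX against D4 and D4 against MEF, the same counts as without it. Over all genes it left 3182 higher and 2495 lower in D4_DUX against D4. In iPSC against D4_DUX and iPSC against MEF it left 6 and 9 members higher and 2 and 0 lower, and nothing is read from these because of the filter.

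Scaling moved the split of all genes. Genes higher and lower in D4_DUX against D4 were 3432 and 2634 as deposited, 2875 and 2961 with median-ratio scaling and 2827 and 2750 with quantile scaling. In D4 against MEF they were 5858 and 4720, 5159 and 5486, and 5155 and 5386, in iPSC against D4_DUX 8278 and 5843, 7502 and 6608, and 6665 and 7621, and in iPSC against MEF 8733 and 5335, 7276 and 6633, and 6609 and 7561. Depth limits Esrp1, Grhl2 and Cldn6 outside iPSC, where no library held more than 5 fragments.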

Other observations

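Of 9 tested relatives, partners and proteases of EpCAM, 3 rose and 1 fell in D4_DUX against D4 (median 0.06, against 0.02 over all tested genes), 6 rose and 1 fell in D4 against MEF (median 0.27, against 0.03), 4 were higher and 5 lower in iPSC against D4_DUX (median −0.23, against 0.15), and 6 were higher and 2 lower in iPSC against MEF (median 1.56, against 0.21). Without Spint1 and Prss8, which passed the filter through iPSC alone, 2 of 7 were higher and 5 lower against D4_DUX (median −0.46). Against MEF 4 of the 7 were higher and 2 lower (median 0.14). Adam17, a protease that sheds EpCAM, rose in D4_DUX against D4 by 0.22 (SE 0.03, adjusted p = 0.000304), and the tetraspanin gene Tspan8 rose by 0.45 (SE 0.07, adjusted p = 0.000884). In D4 against MEF, Cd9, a tetraspanin that binds EpCAM, rose by 1.30 (SE 0.04, adjusted p = 5.16e-10), Tspan8 by 1.96 (SE 0.07, adjusted p = 1.00e-09) and Spint2 by 1.57 (SE 0.08, adjusted p = 1.34e-08). St14, the gene of matriptase, which cleaves EpCAM, had 8.08, 8.997 and 10.2 FPKM in iPSC, against 0.222, 0.296 and 0.211 FPKM in MEF (3.02, SE 0.07, adjusted p = 4.95e-12). Of its inhibitor genes, Spint2 rose in iPSC against MEF by 3.02 (SE 0.08, adjusted p = 1.42e-11), and Spint1 had 11.5, 10.6 and 11.8 FPKM in iPSC, against 0.184, 0.277 and 0.328 FPKM in MEF. Against D4_DUX, iPSC had St14 higher by 1.90 (SE 0.07, adjusted p = 2.03e-10) and Cd9 at −1.48 (SE 0.04, adjusted p = 3.62e-11).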
